A study of Mus musculus with 26 samples.

Results

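Sox10, Cdh19, Ngfr, Mbp, Pmp22, Mag, Prx and Ncmap mark Schwann cells, the glia of peripheral nerves, and the myelin that some of them make. These 8 genes were picked by their symbols from the deposited table of normalized counts, which lists 21031 genes, and each symbol matched 1 gene of the 57010 in the deposited count table. Here they are read in mesenteric arteries, small vessels that supply the intestine, whose outer coat carries nerve fibres.

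Schwann cells wrap the axons that run along arteries. Large axons receive a myelin sheath, a stack of membrane held together by proteins such as Mbp and Pmp22, while thin sympathetic axons lie bundled in non-myelinating Schwann cells, which express Sox10, Cdh19 and Ngfr and little myelin protein. Sox10 is the transcription factor that sets and keeps Schwann cell identity and drives many of the myelin genes.

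The study compared mice that lack pannexin 1, a membrane channel that releases ATP, and mice with 1 altered residue in it, each against controls, by RNA sequencing of 26 libraries. All animals were male and 8 weeks old; the strain is not given in the labels. A global Panx1 knockout group (3 libraries) was set against wild type (3 libraries). The point mutants, labelled +/+ for the altered allele, were Y198F (3 libraries), S205A (4 libraries) and Y308F (3 libraries). Each had controls labelled -/- for that allele, with 3, 4 and 3 libraries, described only as littermates or wild type. The knockout label fitted its target: Panx1 had 61 to 96 counts in the wild-type libraries and 11 to 27 counts in the knockout libraries. The labels do not tie libraries to animals; the design text counts 3 vascular trees for every genotype, although both S205A groups hold 4 libraries. The p-values below measure the spread between libraries, which may be partly technical.

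Libraries held 14895969 to 23617902 counts. A first principal component with 28.2% of the variance set apart 9 libraries whose names carry, after the prefix of the line, a number beginning with 22, called the 22 series here: their scores were 40.4 to 86.3, against -49.7 to -14.6 in the other 17. The 22 series comprises all 3 Y198F libraries, S205A controls 1 to 3 and S205A libraries 2 to 4. Y198F and its labelled controls therefore differ in series and genotype at once, and these cannot be told apart in that comparison. The labels do not say what that number means. Wild-type library 3 and knockout library 3 stood apart in the Schwann cell genes themselves, as given below.

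On build GRCm39, Sox10 (ENSMUSG00000033006) lies at chr15:79039108-79049469 on the minus strand, Cdh19 (ENSMUSG00000047216) at chr1:110815039-110905349 on the minus strand and Ngfr (ENSMUSG00000000120) at chr11:95459638-95478561 on the minus strand. Mbp (ENSMUSG00000041607) lies at chr18:82493207-82603763, Pmp22 (ENSMUSG00000018217) at chr11:63019718-63050600 and Prx (ENSMUSG00000053198) at chr7:27196813-27219639, all on the plus strand. Mag (ENSMUSG00000036634) lies at chr7:30598464-30614474 and Ncmap (ENSMUSG00000043924) at chr4:135094616-135125538, both on the minus strand. All are protein-coding, and the counts cover their exons. Only Sox10 and Pmp22 overlap no other annotated gene. The other 6 overlap noncoding or unclassified genes or pseudogenes, by whole gene; overlap of exons was not checked. These genes lie on the same strand for Cdh19 and Ngfr, and on the opposite strand for Mbp, Mag, Prx and Ncmap. Strand use in counting is not stated, and the counts of all 6 are less certain.

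Of a 12-gene lineage list, 2 defining genes were present in every library. Erbb3, the neuregulin receptor on which Schwann cells depend, had 52 to 913 counts, and S100b, a calcium-binding protein of glia, had 32 to 338. Gfap and Sox2 of that list were at 0 in 1 library each. Its other genes had counts in every library, though Tfap2a as few as 1. Markers of other cells that make some of the same proteins were low. Of 6 oligodendrocyte genes, Opalin and Ermn had 0 counts in all 26 libraries, and Mog was the highest with 1 to 20. Of 5 melanocyte genes, Tyr and Tyrp1 had at most 3 and 2 counts, whereas Pmel had 7 to 41, Dct up to 21 and Mlana up to 14. Of a 17-gene myelin list, Pmp2, a lipid-binding protein of peripheral myelin, had 0 counts in every library. Gjb1 was at 0 in 23 libraries, Cldn19 and Fa2h in 16 each, Ugt8a in 9, Pllp and Pou3f1 in 3 each and Nfasc in 1. The other genes of that list had counts in every library. Of 14 neuron genes, 4 had counts in every library: Stmn2 (505 to 5198), Uchl1 (521 to 1306), Prph (14 to 143) and Gap43 (4 to 116). The other 10 were at 0 in at least 1 library, among them the neurofilament gene Nefl in 18, Nefm in 17, and the noradrenaline synthesis enzymes Dbh in 16 and Th in 24.

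Promoter windows of 300 bases (250 before and 50 after the start of transcription) came from RefSeq on build GRCm38.p6, whose coordinates differ from those of GRCm39. The windows searched covered 5 of the 8 genes in 11 windows. Sox10 and Cdh19 had no entry. Mbp was left out of the search, so whether it has an entry is not shown here. Each window was searched on both strands for the core motifs ACAAAG and ACAATG, which SOX proteins bind. Of 32851 mouse promoter windows 28.6% hold at least 1 of them, and 2 of the 11 windows here do. Both belong to Mag and overlap, so they share 1 match, an ACAAAG on the strand opposite to the gene that lies 126 bases before the start site of the window shown and 67 before the other. The window chr7:30914814-30915113 is shown with that match in capitals, read 5′ to 3′ along the gene as its complement.
Mag: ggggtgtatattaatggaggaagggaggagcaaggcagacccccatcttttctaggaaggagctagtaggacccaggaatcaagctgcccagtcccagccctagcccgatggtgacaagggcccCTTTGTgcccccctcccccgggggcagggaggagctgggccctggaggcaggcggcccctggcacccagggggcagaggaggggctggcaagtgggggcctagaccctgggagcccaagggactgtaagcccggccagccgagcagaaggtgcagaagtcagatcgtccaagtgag
A match of letters is a description, and its absence in the other 9 windows says only that these letters are not there. The remaining windows show how unlike the starts of these genes are, with CpG pairs in capitals. Ngfr, which of the 8 genes had the largest log2 fold change in S205A, starts at chr11:95587649-95587948 (minus strand) in sequence with 71.7% G and C and 23 CpG pairs. Pmp22 has alternative promoters, of which one serves mainly myelinating Schwann cells; its listed starts run from an upstream window at chr11:63128732-63129031 with 3 CpG pairs to a downstream window at chr11:63132553-63132852 with 30. Counts per gene do not tell these starts apart.
Ngfr: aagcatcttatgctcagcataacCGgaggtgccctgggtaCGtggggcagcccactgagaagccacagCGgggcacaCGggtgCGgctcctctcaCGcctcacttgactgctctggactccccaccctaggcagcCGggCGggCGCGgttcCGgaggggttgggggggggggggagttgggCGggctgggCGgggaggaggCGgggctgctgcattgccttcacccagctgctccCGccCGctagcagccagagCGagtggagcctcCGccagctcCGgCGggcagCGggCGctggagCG
Pmp22 upstream: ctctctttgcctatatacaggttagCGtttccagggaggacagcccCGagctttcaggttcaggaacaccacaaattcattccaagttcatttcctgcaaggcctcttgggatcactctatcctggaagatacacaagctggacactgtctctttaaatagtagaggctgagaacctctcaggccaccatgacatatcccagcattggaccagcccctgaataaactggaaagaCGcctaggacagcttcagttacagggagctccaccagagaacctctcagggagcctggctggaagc
Pmp22 downstream: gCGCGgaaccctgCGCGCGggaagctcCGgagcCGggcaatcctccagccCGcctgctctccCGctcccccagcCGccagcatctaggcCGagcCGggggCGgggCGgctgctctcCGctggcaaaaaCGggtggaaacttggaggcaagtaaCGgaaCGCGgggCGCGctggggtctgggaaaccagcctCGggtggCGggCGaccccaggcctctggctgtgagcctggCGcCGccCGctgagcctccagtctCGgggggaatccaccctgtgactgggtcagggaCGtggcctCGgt

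Levels were compared between genes as RPKM, which scales counts by exon length and library size, and between libraries as CPM, which scales them by library size alone, on 1 TMM scale for all 26 libraries. Pmp22 was the highest of the 8 per length, with a median of 27.7 RPKM, followed by Cdh19 with 5.75, Sox10 with 4.92, Mbp with 3.14, Prx with 3.11 and Ngfr with 1.33. Mag, an adhesion protein of the inner myelin membrane, had a median of 0.225 RPKM, and Ncmap, a membrane protein of non-compact myelin, 0.0566. Depth set a limit for these last genes. Mag had 0 counts in S205A control 2 and in S205A library 4, where 3 counts would have been 0.176 and 0.193 CPM. Ncmap never exceeded 19 counts and had 3 or fewer in 6 libraries. Floors of 3 counts cover counting error only.

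The genes differed in how far they moved between libraries. Cdh19 ran over a 17.5-fold range, from 7.06 to 124 CPM, Ngfr over 9.70-fold, Mbp over 9.49-fold and Sox10 over 5.46-fold. Pmp22, which many cell types express, ran over 3.38-fold, from 60.1 to 203 CPM. Prx, which builds the scaffold of the outer myelin surface in Schwann cells and is also made by endothelium, ran over 2.32-fold, from 12.3 to 28.6 CPM. In whole arteries, fewer Schwann cells and less RNA of a gene per Schwann cell cannot be told apart.

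**Figure D1:**
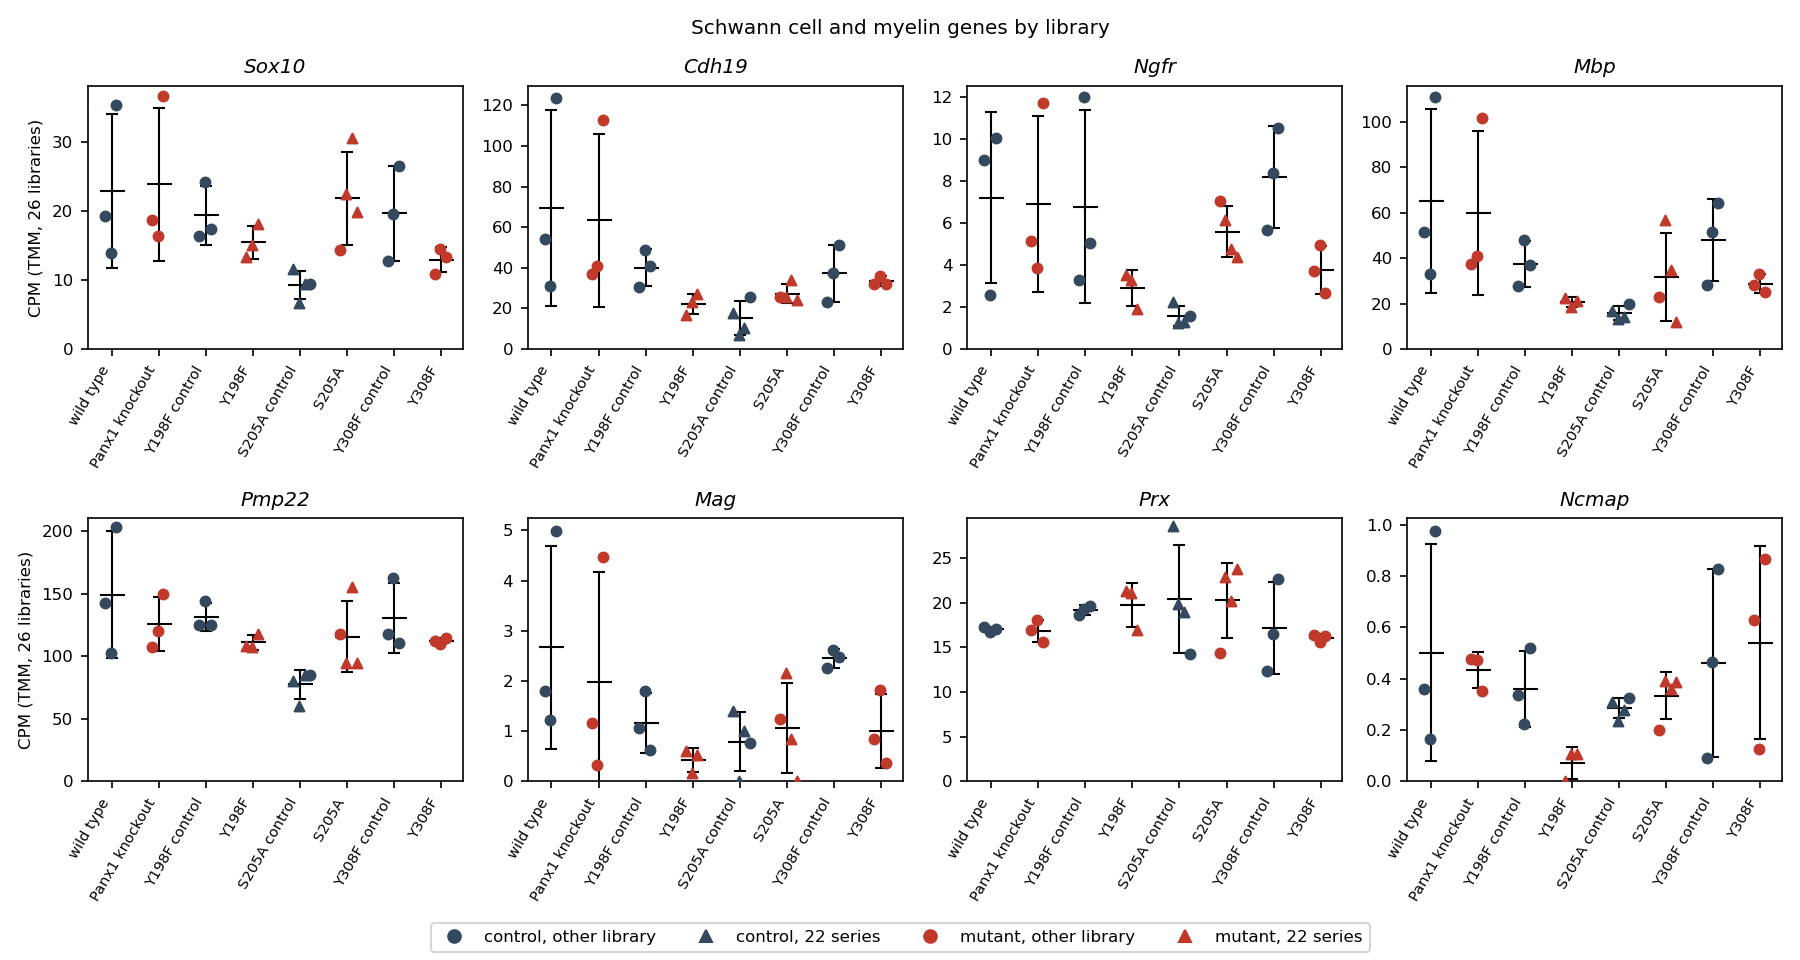
CPM of each gene (vertical axis, TMM scale of 26 libraries) in the 8 groups; each point is 1 library, the horizontal mark is the group mean and the bars are 1 SD, drawn down to 0 at most. The S205A control group has the lowest mean of the 8 for Sox10, Cdh19, Ngfr, Mbp and Pmp22, and wild-type library 3 and knockout library 3 stand above the rest of their groups for Sox10, Cdh19 and Mbp.

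Sox10 had its highest means in the knockout, 23.9 ± 11.1 CPM, and in wild type, 22.9 ± 11.2 (SD; n is 3 per group, or 4 for S205A and its controls, throughout). Lower means followed in S205A (21.8 ± 6.70), Y308F control (19.6 ± 6.87), Y198F control (19.4 ± 4.23), Y198F (15.5 ± 2.40), Y308F (12.9 ± 1.84) and S205A control (9.29 ± 1.99). Only the last pair of steps, from Y198F to Y308F and from Y308F to S205A control, exceeded the larger SD of the groups they join, and the ranges overlapped at both.

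Cdh19, a cadherin made almost only by Schwann cells and their precursors, had the means 69.6 ± 48.3 CPM in wild type and 63.4 ± 42.7 in the knockout. Lower means followed in Y198F control (40.1 ± 9.08), Y308F control (37.3 ± 13.9), Y308F (33.3 ± 2.40), S205A (27.3 ± 4.55), Y198F (22.3 ± 5.02) and S205A control (15.3 ± 8.34). The steps from Y308F to S205A and from S205A to Y198F exceeded the larger SD, with overlapping ranges. The large SDs of the first groups came from 1 library each: Cdh19 was 54.1, 30.9 and 124 CPM in wild-type libraries 1 to 3, and 36.8, 40.8 and 113 CPM in knockout libraries 1 to 3.

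Ngfr, the low-affinity receptor for nerve growth factor on non-myelinating and immature Schwann cells, was highest in Y308F control, with 8.19 ± 2.43 CPM. Wild type (7.20 ± 4.07), the knockout (6.90 ± 4.21), Y198F control (6.77 ± 4.59) and S205A (5.59 ± 1.23) did not differ from their neighbours in this order by more than the larger SD. Y308F (3.77 ± 1.15) lay below S205A by more than that. Y198F (2.91 ± 0.869) came next, and S205A control (1.58 ± 0.459) was lowest by more than the larger SD, with overlapping ranges.

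Of the genes of compact myelin, Mbp, which binds the inner faces of the membrane together, went from 65.1 ± 40.5 CPM in wild type through the knockout (59.9 ± 36.1), Y308F control (47.9 ± 18.2), Y198F control (37.3 ± 10.1), S205A (31.6 ± 19.3) and Y308F (28.6 ± 4.14) to Y198F (20.7 ± 2.19) and S205A control (15.9 ± 2.93). The step from Y308F to Y198F exceeded the larger SD without overlap of the ranges, and the last step did with overlap. Pmp22, a membrane protein whose dosage causes inherited neuropathy, was 149 ± 50.7 CPM in wild type, 132 ± 11.2 in Y198F control, 130 ± 28.1 in Y308F control and 126 ± 21.9 in the knockout. It was 116 ± 28.6 in S205A, 112 ± 2.67 in Y308F and 111 ± 5.99 in Y198F. S205A control, at 77.5 ± 11.8, lay below all of Y198F, again with no overlap.

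The remaining genes had other orders. Mag was highest in wild type (2.67 ± 2.02 CPM) and Y308F control (2.45 ± 0.186), then lower in the knockout (1.99 ± 2.19), Y198F control (1.16 ± 0.594), S205A (1.06 ± 0.897), Y308F (1.00 ± 0.744), S205A control (0.788 ± 0.589) and Y198F (0.430 ± 0.237), and no step exceeded the larger SD. Prx was the exception of the set: its means ran only from 16.1 ± 0.396 CPM in Y308F to 20.4 ± 6.0 in S205A control, the group where most others were lowest. The 6 groups between held 20.3 ± 4.24 (S205A), 19.8 ± 2.45 (Y198F), 19.2 ± 0.540 (Y198F control), 17.2 ± 5.18 (Y308F control), 17.0 ± 0.262 (wild type) and 16.8 ± 1.22 (knockout), and no step exceeded the larger SD. Ncmap lay between 0.287 ± 0.0394 CPM in S205A control and 0.540 ± 0.377 in Y308F for 7 groups and at 0.0708 ± 0.0613 in Y198F, whose libraries had 0, 2 and 2 counts.

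The S205A mutation takes away a serine of pannexin 1 that can be phosphorylated. Here 6 of 7 tested Schwann cell genes had positive log2 fold changes, with a median of 0.84, against -0.01 over all genes, and Ngfr and Sox10 had the largest. Ngfr was 7.04, 6.15, 4.78 and 4.38 CPM in S205A libraries 1 to 4, and 2.23, 1.23, 1.28 and 1.56 CPM in controls 1 to 4. The lowest mutant library was above the highest control. With edgeR's quasi-likelihood test the log2 fold change was 1.82 (SE 0.317, 95% interval 1.11 to 2.53), with a Benjamini-Hochberg adjusted p = 0.933.

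Sox10 was 14.4, 22.4, 30.5 and 19.9 CPM in the S205A libraries and 11.6, 6.70, 9.49 and 9.43 CPM in the controls. These groups were apart as well, with a log2 fold change of 1.23 (SE 0.250, adjusted p = 0.933 in edgeR). Pmp22 was the third gene without overlap: 118, 94.5, 155 and 94.99 CPM in the mutants against 80.1, 60.1, 84.7 and 85.0 in the controls, a log2 fold change of 0.58 (SE 0.186, adjusted p = 1.00 in edgeR).

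Mbp and Cdh19 had higher means in S205A but overlapped with the controls. Mbp was 23.0, 56.9, 34.7 and 11.7 CPM in the S205A libraries and 16.6, 13.3, 13.9 and 19.7 in the controls, so that library 4 of the mutants was below every control; the log2 fold change was 0.99 (SE 0.411, adjusted p = 1.00 in edgeR), and 0.54 without S205A library 2. Cdh19 was 25.6, 25.6, 34.1 and 24.0 CPM against 18.0, 7.06, 10.4 and 25.7, a log2 fold change of 0.84 (SE 0.355, adjusted p = 1.00 in edgeR), or 1.26 with limma voom. Prx (-0.01, 95% interval -0.53 to 0.50) and Mag (0.42, -2.04 to 2.89) had intervals that include both directions. Ncmap did not pass the filter on low counts here, nor in any comparison but that of Y308F.

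After adjustment over all genes, none of the 7 tested Schwann cell genes passed in S205A with edgeR, and no gene of 15709 did, 0%. At an unadjusted p under 0.05 the edgeR test listed 5 of the 7, against 2.87% of all genes, and 3 of the 7 were higher without overlap, against 1.15%. limma voom passed 0 of the genes and DESeq2, which passed 38 of 15702 genes in all, passed 2: Ngfr with adjusted p = 0.000665 and Sox10 with adjusted p = 0.00807. Over all alternatives the adjusted p of Ngfr ran from 0.000665 to 1.00 and that of Sox10 from 0.00807 to 1.00. In the authors' deposited table, made with DESeq2, Ngfr had a log2 fold change of 1.82 with adjusted p = 0.0132 and Sox10 1.23 with adjusted p = 0.0149, among 96 of 19399 genes under 0.05 (0.495%). The call thus rested on the tool. The size did not: among the 22 series alone, with 3 libraries on each side, the edgeR log2 fold change was 1.69 (SE 0.376) for Ngfr and 1.40 (SE 0.254) for Sox10.

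None of the tested genes of the other cell type lists passed in this comparison. All 6 listed fibroblast markers were tested and had positive log2 fold changes, with a median of 1.40 and 0 past the threshold, and their summed level was 1433 to 4194 CPM in S205A and 991 to 1440 in the controls. Of these, Dcn had at least 1902 counts and Pdgfra at least 136 in every library. All 5 tested macrophage markers were positive too, with a median of 0.61, and summed to 5.74 to 36.3 CPM in S205A and 7.94 to 19.8 in the controls. All 5 adipocyte markers were negative, with a median of -0.47. Endothelial markers summed to between 1016 and 8748 CPM in the S205A controls and to between 3811 and 5027 in the mutants. The part of these differences in the Schwann cell values was not tested.

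The Y308F mutation removes a tyrosine that can be phosphorylated, and here 7 of 8 tested genes had negative log2 fold changes, with a median of -0.40, against -0.02 over all genes. Ngfr was 3.73, 4.94 and 2.64 CPM in the Y308F libraries and 5.66, 8.39 and 10.5 CPM in their controls. Every mutant library was below every control. Its log2 fold change was -1.10 (SE 0.317, adjusted p = 0.940 in edgeR).

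Mag was 0.840, 1.82 and 0.356 CPM in the Y308F libraries, from 16, 43 and 7 counts, and 2.26, 2.62 and 2.48 CPM in the controls. These groups were also apart, with a log2 fold change of -1.26 (SE 0.543, adjusted p = 0.940 in edgeR), which was -1.999 without Y308F library 2. Mbp was 27.98, 33.1 and 24.9 CPM against 28.2, 51.5 and 64.0, and overlapped, with a log2 fold change of -0.73 (SE 0.279, adjusted p = 0.940 in edgeR). Sox10 was 10.9, 14.5 and 13.4 CPM against 12.8, 19.6 and 26.5, with overlap and a log2 fold change of -0.59 (SE 0.254, adjusted p = 0.940 in edgeR). Without Y308F control 3 these values were -0.46 for Mbp and -0.31 for Sox10.

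The other genes stayed closer to 0. Pmp22 had a log2 fold change of -0.20 (95% interval -0.56 to 0.15), or -0.018 without Y308F control 2, Cdh19 -0.15 (-0.73 to 0.43), Prx -0.08 (-0.56 to 0.40) and Ncmap 0.24 (-1.74 to 2.23), all in edgeR. None of the 8 genes passed the adjusted threshold, nor did any of 16037 genes, 0%, and DESeq2 and limma voom passed none of the 8 either. At an unadjusted p under 0.05 edgeR listed 4 of the 8, against 4.40% of all genes, and 2 of the 8 were lower without overlap, against 5.74%. All libraries of this line are outside the 22 series. None of the tested genes of the other cell type lists passed in edgeR either. All 6 tested neuron genes had negative log2 fold changes, with a median of -0.49, and the list summed to 145 to 197 CPM in Y308F and 180 to 304 in the controls. All tested genes were also negative for macrophages (5 genes, median -0.30), mesothelium (4 genes, -1.90), perineurial cells (3 genes, -0.36) and lymphoid cells (3 genes, -0.74), and their summed ranges overlapped between the groups. The part of these lists in the result was not tested.

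The effects of S205A and Y308F were then tested against each other in 1 model of their 4 groups. Ngfr gave the largest difference of the 8 genes, 2.90 on the log2 scale (SE 0.452, adjusted p = 0.205 in edgeR), with the 95% interval 1.94 to 3.86, and 0% of the tested genes had a smaller p. Sox10 differed by 1.79 (SE 0.380, adjusted p = 0.965 in edgeR), Mbp by 1.69 (SE 0.589, adjusted p = 1.00 in edgeR) and Pmp22 by 0.76 (SE 0.258, adjusted p = 1.00 in edgeR). With edgeR 0 of the 8 genes and 0 of 17602 passed after adjustment, 0%; unadjusted, 4 of the 8 were under 0.05, against 3.49% of all genes. limma voom passed 0 of the 8 genes and DESeq2, which passed 13 of 17595 genes in all, passed 2, Ngfr (adjusted p = 5.13e-06) and Sox10 (adjusted p = 0.0285), and the adjusted p of Ngfr over all alternatives ran from 5.13e-06 to 1.00. S205A libraries mix both series and Y308F libraries do not. All 6 fibroblast markers (median 1.32) and all 5 macrophage markers (0.62) were positive in the difference of these effects as well. So were all 6 tested neuron genes (0.86), all 4 mesothelium genes (3.37) and all tested lymphoid, perineurial and lymphatic endothelial genes. Smooth muscle (0.039), endothelial (0.024) and adipocyte markers (0.077) went in both directions. The part of these lists in the difference was not tested.

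**Figure D2:**
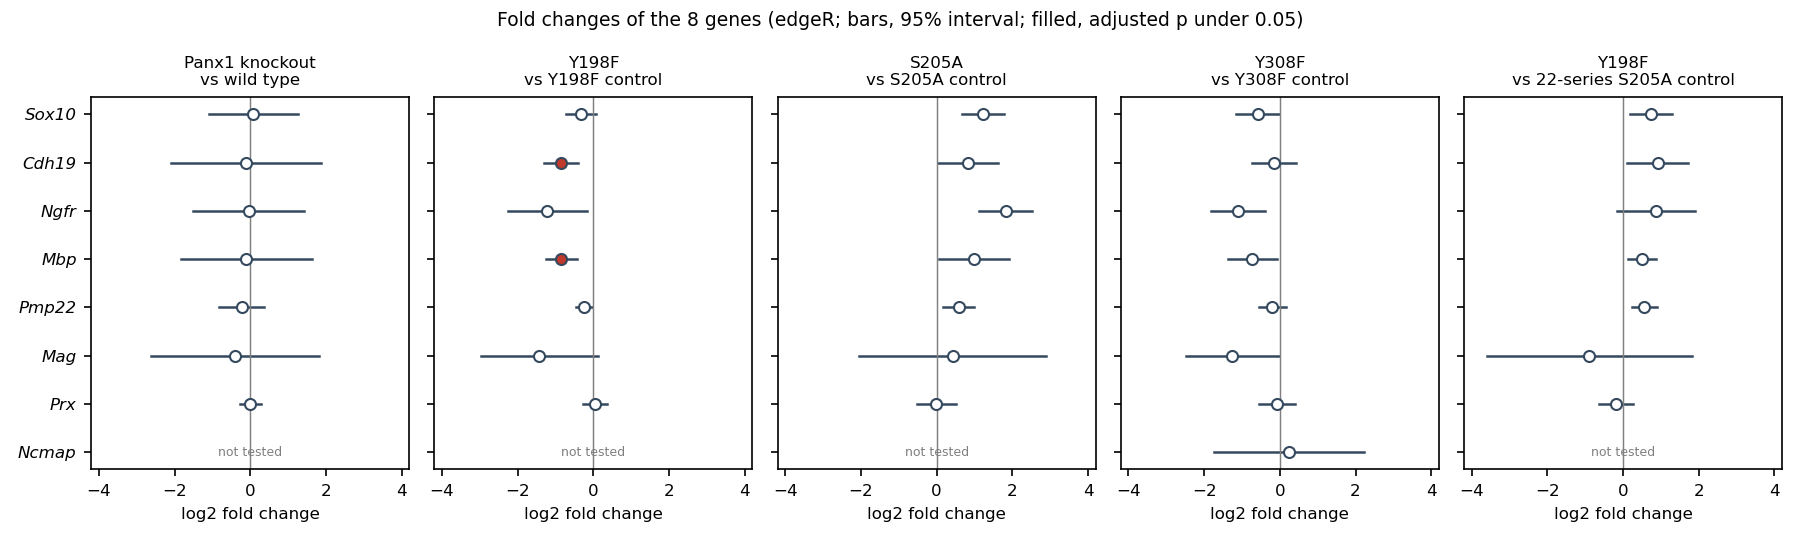
Log2 fold changes (horizontal axis) of the 8 genes in 5 comparisons from edgeR, with 95% intervals as bars; filled points have an adjusted p under 0.05. Only Cdh19 and Mbp in Y198F against its labelled controls are filled, and Ngfr and Sox10 lie on opposite sides of 0 in S205A (1.82 and 1.23) and Y308F (-1.10 and -0.59).

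Y198F removes another tyrosine of the channel. Against the labelled controls, Cdh19 and Mbp were lower and passed the test. Cdh19 was 16.9, 23.0 and 26.9 CPM in the Y198F libraries and 30.6, 48.6 and 41.0 CPM in the controls. Mbp was 22.6, 18.3 and 21.2 CPM against 27.5, 47.7 and 36.7. Both genes were apart between the groups. Their log2 fold changes were -0.85 for Cdh19 (SE 0.201, adjusted p = 0.0202 in edgeR) and -0.85 for Mbp (SE 0.186, adjusted p = 0.0125 in edgeR).

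These 2 of 7 tested genes stand against a background of 15.0% of genes called in this comparison, and 5.48% called lower. Without overlap, 4 of the 7 were lower (Cdh19, Mbp, Pmp22 and Mag), against 15.2% of all genes. Pmp22 was 108, 107 and 118 CPM against 125, 145 and 125, and had a log2 fold change of -0.25 (SE 0.102, adjusted p = 0.130 in edgeR), or -0.13 with all 8 groups and the series as a term. Mag had 11, 3 and 10 counts against 19, 32 and 12, with a log2 fold change of -1.43 (SE 0.701, adjusted p = 0.206 in edgeR).

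Ngfr was 3.53, 3.29 and 1.92 CPM in Y198F and 3.30, 11.98 and 5.04 in its controls; the groups overlapped and the log2 fold change was -1.22 (SE 0.467, adjusted p = 0.114 in edgeR). Without control 2 it was -0.53, and without control 1 it was -1.55 and passed (edgeR adjusted p = 0.0445), where 1546 of 16785 genes did. Ngfr also passed with DESeq2 (adjusted p = 0.0470), where 2849 of 16043 genes did. It passed in edgeR with no filter on low counts as well (adjusted p = 0.00216), where 3158 of 28760 genes did. In both settings 3 of the Schwann cell genes passed. Over all alternatives the adjusted p of Ngfr ran from 0.00216 to 1.00. Sox10 had -0.33 (95% interval -0.73 to 0.07) and Prx 0.04 (-0.27 to 0.35). Without control 2 the value for Sox10 was -0.14, and with all 8 groups in 1 fit and the series as a term it was -0.68. With 1 library left out, the log2 fold changes stayed between -1.01 and -0.69 for Cdh19 and between -1.03 and -0.64 for Mbp, but calls were lost. Without control 2 only Mbp passed, and without control 3 or without Y198F library 2 neither gene did, at edgeR adjusted p-values of 0.0511 to 0.0780. Over all genes, 1714 of 16725, 908 of 16708 and 1664 of 16697 passed in these fits, in the same order. In the fit with the series as a term, Cdh19 was -0.30 and Mbp -0.89, both with edgeR adjusted p = 1.00. That fit knows the series difference within a line only from S205A control 4 and S205A library 1. Over all alternatives, the adjusted p ran from 4.97e-08 to 1.00 for Cdh19 and from 8.39e-08 to 1.00 for Mbp.

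Of the lists for other cell types, those of fibroblasts, macrophages, lymphatic endothelium and adipocytes had 0 genes past the threshold. Of the 6 fibroblast markers 5 had negative log2 fold changes, with a median of -1.04, and the list summed to 1327 to 2122 CPM in Y198F and 2204 to 2790 in the controls. All 5 macrophage markers (median -0.60) and all 4 lymphatic endothelial markers (median -0.90) were negative as well, and all 5 adipocyte markers were positive (median 1.23), with overlapping sums. Of the 6 smooth muscle markers 2 passed as higher, where 9.55% of all genes did. The part of these lists in the Schwann cell values was not tested.

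The same Y198F libraries were also set against S205A controls 1 to 3, which belong to their series but to another line. Here 5 of the 7 tested genes had positive estimates, and Mag and Prx had negative ones. Sox10 was 13.3, 15.1 and 18.1 CPM in Y198F against 11.6, 6.70 and 9.49, with no overlap and a log2 fold change of 0.74 (SE 0.242, adjusted p = 1.00 in edgeR). Pmp22 and Mbp, from the values given above, were also apart, with log2 fold changes of 0.57 (SE 0.145) and 0.50 (SE 0.165), both at edgeR adjusted p = 1.00.

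Cdh19 (0.91, 95% interval 0.11 to 1.71) and Ngfr (0.88, -0.16 to 1.91) overlapped between these groups. Mag was at -0.89 (-3.60 to 1.81), or -0.22 without S205A control 1, and Prx at -0.19 (-0.64 to 0.27). None of the 7 genes passed with edgeR, DESeq2 or limma voom, and edgeR passed 0 of 15879 genes, 0%. At an unadjusted p under 0.05 edgeR listed 4 of the 7, against 3.10% of all genes, and 3 of 7 were higher without overlap, against 4.45%. The sign of the estimates for Sox10, Cdh19, Ngfr, Mbp, Pmp22 and Prx in Y198F therefore depended on which controls were used. Mag was negative against both. For Sox10, Ngfr and Prx the interval of at least 1 of these comparisons includes 0. The S205A controls are shared with the S205A comparison, where they were the low group, and the 6 fibroblast markers were positive here as well, with a median of 1.23, as were the 5 adipocyte markers, with a median of 1.63. In the authors' deposited table for Y198F, whose fold changes equal a fit against S205A controls (largest difference 0.000158 over 18991 genes), Sox10 had a log2 fold change of 0.73 and Pmp22 0.51, and 0 of the 8 genes had an adjusted p under 0.05, as against 3 of 18991 genes in all (0.0158%).

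Loss of the whole channel gave no call in these genes. Sox10 was 18.7, 16.3 and 36.6 CPM in knockout libraries 1 to 3 and 19.3, 13.9 and 35.4 CPM in wild type. Mbp was 37.4, 40.7 and 102 CPM against 51.6, 33.1 and 111. In each group 1 library, number 3, was far above the others, and the ranges of the groups overlapped.

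The edgeR log2 fold changes were 0.08 for Sox10 (95% interval -1.08 to 1.25), -0.11 for Cdh19 (-2.08 to 1.86), -0.04 for Ngfr (-1.51 to 1.43), -0.10 for Mbp (-1.82 to 1.62) and -0.41 for Mag (-2.62 to 1.81). Pmp22 (-0.23, -0.81 to 0.36) and Prx (0.01, -0.28 to 0.29) were narrower. With edgeR 0 of 7 passed, against 5 of 16193 genes, 0.0309%; 0 of 7 were under an unadjusted p of 0.05, against 11.2%, and 0 of 7 were apart, against 18.8%. DESeq2 and limma voom also passed 0. These intervals do not show that the groups are alike: without wild-type library 3 the estimates were 0.60 for Cdh19 and 0.52 for Mbp, and without knockout library 3 they were -0.82 and -0.72.

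Set against the knockout effect, the S205A effect was larger by 1.88 on the log2 scale for Ngfr (knockout minus S205A -1.88, SE 0.638), 1.17 for Sox10 (-1.17, SE 0.500) and 0.83 for Pmp22 (-0.83, SE 0.321), all at edgeR adjusted p = 0.999. Without wild-type library 3 the differences were -0.70 for Sox10 and -0.54 for Pmp22. Of the 7 genes tested, these 3 were under 0.05 unadjusted, against 4.16% of genes, and 0 passed after adjustment with edgeR, DESeq2 or limma voom, against 0.00562% with edgeR. The 7 genes had a median difference of -0.97. All 6 fibroblast markers (median -1.45) and all 5 adipocyte markers (-1.07) were negative in it as well. Endothelial (-0.097), macrophage (-0.10) and lymphoid markers (0.24) went in both directions. The part of these lists in the difference was not tested. Between knockout and Y308F effects 0 of 8 genes passed in edgeR, against 0.0116% of genes, and 0 were under 0.05 unadjusted, against 3.10%; DESeq2 and limma voom passed 0 as well.

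Membership of the 22 series was also tested directly, beside the 8 groups. Prx alone passed among the 8 genes, higher in the 22 series by 0.65 on the log2 scale (SE 0.175, adjusted p = 0.0177 in edgeR), where 11.7% of genes passed. In S205A libraries it was 14.3 CPM in library 1, outside the series, and 20.1 to 23.7 in the others; in S205A controls it was 14.2 in control 4 and 18.9 to 28.6 in the rest. Libraries outside the series were the lowest of both groups. Without S205A control 4 or without S205A library 1, Prx no longer passed, at edgeR adjusted p-values of 0.152 to 0.286, while its size stayed at 0.63 to 0.65.

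Of the other 7 genes, 5 varied with Sox10 within groups, and Prx and Ncmap did not pass the test. For each library in a group and series with at least 1 other (24 libraries), the deviation of log2 CPM from the mean of that group and series was taken, and 7 relations with Sox10 were computed. Cdh19 had the highest coefficients of the 7, with Pearson r 0.957 and Spearman rho 0.948 (permutation test within groups, p = 1e-05 for each, the smallest that 100000 permutations can give; Benjamini-Hochberg adjusted 7e-05). It was 0.935 in the 9 libraries of the 22 series and 0.963 in the other 15.

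Of the myelin genes, Mbp had r 0.759 and rho 0.816 (permutation p = 0.00145 and 0.0003, adjusted 0.00507 and 0.00105), but r was 0.963 outside the 22 series and 0.343 within it. Pmp22 had r 0.713 and rho 0.727 (permutation p = 0.00798 and 0.00388, adjusted 0.0112 and 0.00627), and Mag r 0.628 and rho 0.717 (permutation p = 0.00362 and 0.00172, adjusted 0.00682 and 0.00401). Within and outside the series r was 0.846 and 0.683 for Pmp22, and 0.656 and 0.744 for Mag.

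Ngfr had r 0.711 and rho 0.670 (permutation p = 0.0039 and 0.00448, adjusted 0.00682 and 0.00627), and r was 0.828 outside the series and 0.121 within it; the difference between these was not tested. Ncmap (r 0.420, rho 0.329, adjusted permutation p = 0.149 and 0.232) and Prx (r 0.244, rho 0.00957, adjusted permutation p = 0.406 and 0.971) did not pass; r within and outside the series was 0.440 and 0.423 for Ncmap and 0.0608 and 0.335 for Prx. Leaving out wild-type library 3 and knockout library 3, the farthest in Sox10, gave r 0.931 for Cdh19, 0.649 for Mbp, 0.621 for Ngfr, 0.604 for Pmp22, 0.544 for Mag, 0.389 for Ncmap and 0.378 for Prx. The libraries share total depth and TMM scaling across genes.

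**Figure D3:**
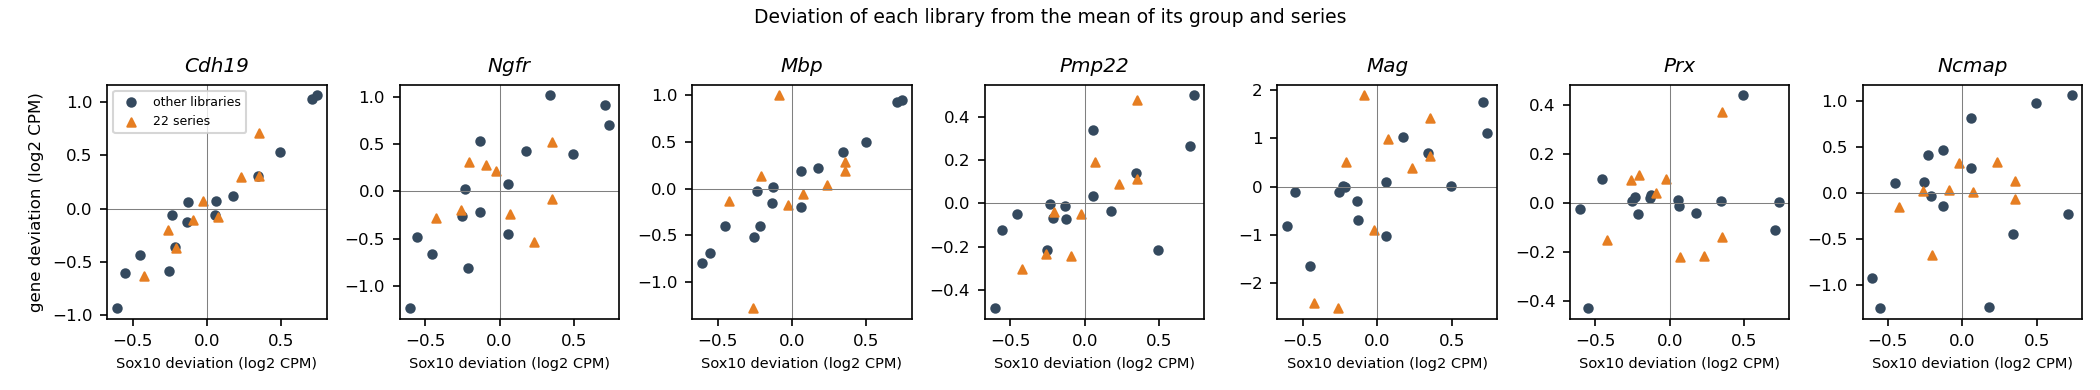
Each point is 1 of 24 libraries; the horizontal axis is its Sox10 deviation and the vertical axis the deviation of the named gene, both in log2 CPM from the mean of its group and series. Cdh19 lies close to a line (r 0.957), whereas Ngfr and Mbp scatter in the 22 series (r 0.121 and 0.343).

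Among 14304 genes, those outside the set most like Sox10 by this measure, over the same 24 libraries, included Ank3 (Pearson r 0.941), an ankyrin that anchors membrane proteins, and Plxnb3 (0.932), a plexin receptor. Erbb3 (0.925), Gpr37l1 (0.923) and Lgi4 (0.916), a secreted factor of Schwann cells, were also among them. Those most like the mean of the 8 genes included Aspa (0.945), Lgi4 (0.937), Vwa1 (0.931), Gjc3 (0.923) and Plxnb3 (0.918). These are descriptions of ranked genes, with no test.

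Other Schwann cell genes gave the wider picture. In S205A, all 11 tested genes of a 12-gene lineage list (such as Erbb3, S100b and Scn7a) had positive log2 fold changes, with a median of 0.94, and so had 8 of 10 tested genes of a 17-gene myelin list, with a median of 0.70; the median of all 15709 genes was -0.01. With edgeR 0 of them passed, and 6 lineage and 2 myelin genes were under 0.05 unadjusted, against 2.87% of all genes. Without overlap, 5 lineage genes were higher, against 1.15% of all genes, among them Erbb3 (1.06, SE 0.332), Gfra3 (1.11, SE 0.296) and Scn7a (1.02, SE 0.341).

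In Y308F, 10 of 11 lineage genes and 10 of 12 myelin genes had negative log2 fold changes, with medians of -0.34 and -0.35 against -0.02 over all genes. In edgeR 0 passed, and 0 lineage and 4 myelin genes were under 0.05 unadjusted, against 4.40% of all genes. Cadm4, an adhesion protein of the axon contact, had -0.98 (SE 0.353, adjusted p = 0.940 in edgeR). Egr2, the transcription factor that switches on myelination, had 1.06 (SE 0.391) and lay above all its controls, opposite to Mag and Mbp. In the knockout it was likewise higher without overlap (0.85, SE 0.333, adjusted p = 0.408 in edgeR), where 18.8% of all genes were apart. Within groups, the Pearson r of Egr2 with Sox10 was -0.139.

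In Y198F against labelled controls, 4 of 12 lineage genes passed as lower in edgeR, against 5.48% of all genes: S100b (-0.89, SE 0.197, adjusted p = 0.0120), Erbb3 (-0.80, SE 0.196, adjusted p = 0.0187), Scn7a (-0.72, SE 0.140, adjusted p = 0.00670) and Gfra3 (-0.56, SE 0.166, adjusted p = 0.0412). Of 12 tested myelin genes 1 passed, Cadm4 (-0.73, SE 0.181, edgeR adjusted p = 0.0227). Of the neuron list Gap43, a growth protein of axons and of non-myelinating Schwann cells, passed at -1.76 (edgeR adjusted p = 0.0274), and of the perineurial list Itgb4 passed as higher, where 9.55% of all genes did, at 0.50 (edgeR adjusted p = 0.0163). Against the S205A controls of the same series the medians were 0.71 for the lineage list and 0.30 for the myelin list, and 0 passed. In the knockout they were 0.16 and 0.04, and 0 passed. The list of neurotrophins, neuregulins and their receptors, the ligands and partners of Ngfr and Erbb3, had 8 tested genes, of which 0 passed in any of these 5 comparisons, with medians from -0.13 to 0.19.

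The lists were also set against Sox10 within groups, as a description. The median Pearson r with Sox10 over the 24 libraries was 0.614 for 10 myelin genes, with the lowest at -0.520 (Dhh), and 0.613 for 9 lineage genes, from -0.226 (L1cam) to 0.925 (Erbb3). Over all other genes the median was 0.0205. The fibroblast list, whose median between S205A groups was 1.40 with 0 genes passing, had a median of 0.0174 within groups, from -0.326 to 0.159, and the endothelial list -0.499, from -0.575 to 0.513. The macrophage list had a median of 0.469, with its 5 genes from 0.136 to 0.547, and the adipocyte list 0.379, with its 5 genes from 0.202 to 0.478.

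**Figure D4:**
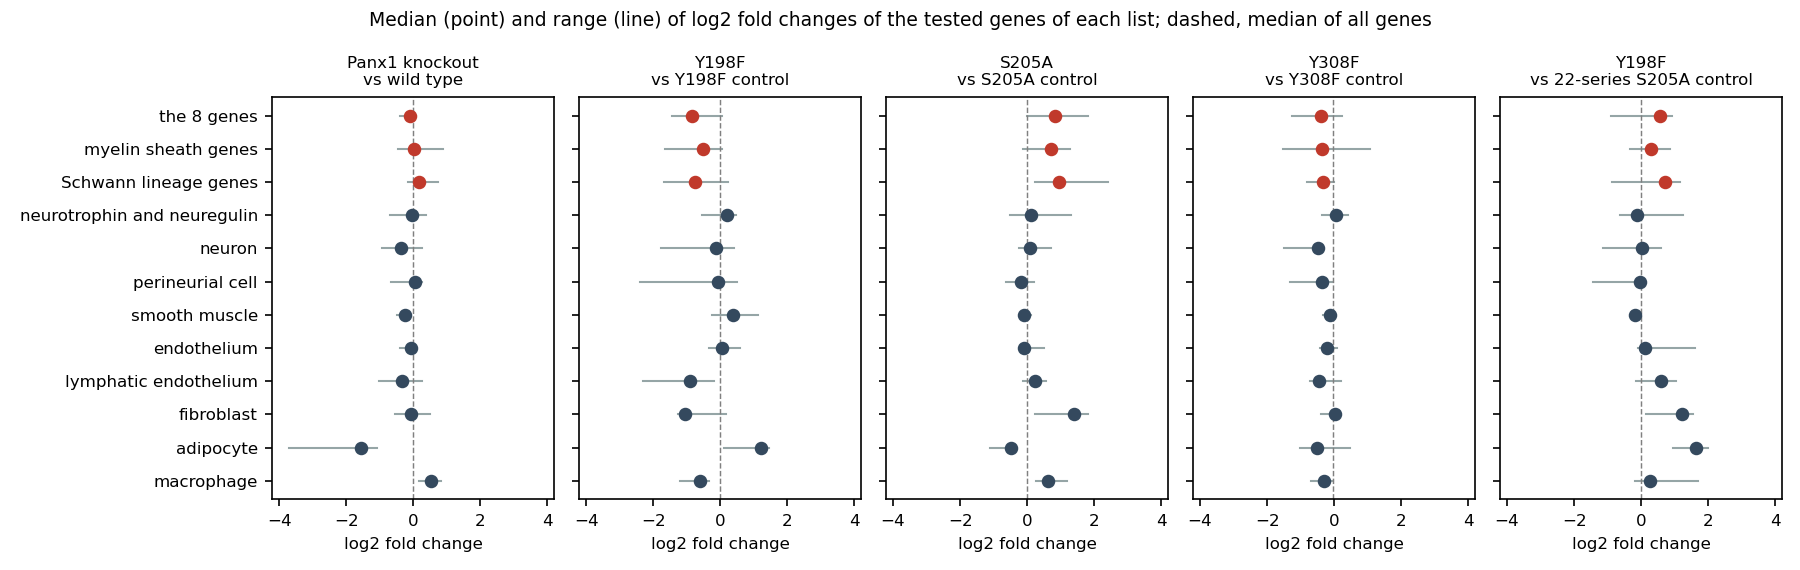
Log2 fold changes (horizontal axis) in 5 comparisons for the 8 genes and 11 lists of cell type genes; points are medians over the tested genes of a list, lines run from the lowest to the highest, and the dashed line is the median of all genes tested. In S205A the myelin and lineage lists lie at 0.70 and 0.94 and the fibroblast list at 1.40.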

How the data were processed

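The authors deposited whole-number counts per gene, which per the labels came from STAR 2.7.9a alignments to GRCm39 and the featureCounts function in Rsubread 2.20.0. The annotation release and strand setting are not given in the sources used here. A second deposited table holds a normalized signal, which equalled the counts divided by DESeq2 size factors when checked. The authors' deposited tables of comparisons, made with DESeq2 1.46.0 per the labels, give log2 fold changes, a test score and p-values.

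Each comparison was fitted on the deposited counts with edgeR 4.0.16 (R 4.3.3; quasi-likelihood test, TMM, filterByExpr, robust), with only its own groups, and adjusted over all genes by Benjamini-Hochberg; an adjusted p under 0.05 passed. Gene positions and lengths came from GENCODE vM39, which matched 56310 of 57010 identifiers. Log2 CPM used a prior count of 2. All replicate pairs differed beyond sampling noise (chi-square per degree of freedom 13.6 to 142 over 30 pairs). Scripts were tested on simulated data.

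The 8 genes and all lists were chosen with earlier results of these data known. Named genes outside the 8 were the listed genes past the threshold (at most 4 per list and comparison), the defining markers of each list and the 6 genes most like Sox10 or the mean; some of these are not reported here. Genes of the myelin and lineage lists named without a call were chosen after their values were seen. Alternatives were DESeq2 1.42.0, limma 3.58.1 voom, DESeq2 size factors, no low-count filter, a single fit over every group, the series as a term, a replicate block and each library left out.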

Additional observations from a re-analysis of the deposited data

Results flagged for a closer look

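Cdh19 in S205A library 3, at 34.1 CPM, stood apart from the other 3 libraries of its group, which lay between 24.0 and 25.6 CPM, by a gap test within the group. It was the only case among 16 such tests, and chance marks about 1 in 20. That library was also the highest of its group for Sox10 and Pmp22.

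Ngfr separated the groups in opposite directions in S205A, where all mutants were above all controls, and in Y308F, where all were below. The difference of the 2 effects, from the separate fits, was 2.92 on the log2 scale; tested in 1 model of the 4 groups with edgeR it was 2.90, at adjusted p = 0.205.

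Pmp22 likewise lay below all labelled controls in Y198F and above all controls in S205A, a difference of effects of -0.83 (Y198F minus S205A), which was not tested. Y198F and its labelled controls differ in series as well.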

How the results depend on the processing

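Mag and Ncmap had few counts, and every group had 3 or 4 libraries. How far either limited the calls was not tested. For Y198F against labelled controls the count of the 8 genes past the threshold was 2. It was 3 (Ngfr added) with DESeq2 (2849 of 16043 genes in all) and with no filter (3158 of 28760). It was 0 with all 8 groups in 1 fit and 0 with the series as a term. With 1 library left out it ran from 0 to 3. It was 3 without control 1 (1546 of 16785 genes in all) and 0 without control 3 (908 of 16708). For S205A it went from 0 to 2 with DESeq2. For S205A against Y308F effects it went from 0 to 2 with DESeq2 and to 1 (Ngfr) with no filter, where 1 of 31875 genes passed in all. For the series term it went from 1 to 0 in the S205A line alone and to 0 without S205A control 4 or S205A library 1. The cause was not tested.

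Signs reversed only for genes whose interval includes 0. In the knockout, Cdh19 became 0.057 and Mbp 0.051 with limma voom, and Prx -0.015 with all 8 groups, with or without the series. In Y198F, Prx became -0.60 with the series as a term, in S205A Prx became 0.059 with limma voom, and in Y308F Ncmap became -0.019 with limma voom. Leaving out 1 library, knockout log2 fold changes ranged from -0.37 to 0.55 for Sox10, -0.82 to 0.60 for Cdh19, -0.66 to 0.28 for Ngfr, -0.72 to 0.52 for Mbp, -0.43 to 0.063 for Pmp22, -1.82 to 0.41 for Mag and -0.048 to 0.053 for Prx. The ranges were -0.020 to 0.15 for Prx in Y198F, -0.15 to 0.20 for Prx and -0.17 to 0.85 for Mag in S205A, and -0.26 to 0.97 for Ncmap, -0.39 to 0.15 for Cdh19 and -0.27 to 0.17 for Prx in Y308F. For Prx in Y198F against the S205A controls it was -0.29 to 0.026. Without both libraries 3 (added after seeing the data), 0 genes passed in the knockout comparison.

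Replicate numbers did not pair the libraries throughout: same-numbered libraries correlated between -0.284 and 0.225 in their deviations from group means. Knockout libraries 2 and 3 did match the wild-type library of their own number best (r 0.124 and 0.225), and knockout library 1 did not (-0.0785). A replicate block left the count of Schwann cell genes at 2 in Y198F and at 0 in the other comparisons between groups and between effects; Ngfr in the knockout became 0.0054 and Prx in S205A 0.011.

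Over all genes the number past the threshold also moved with the tool: with DESeq2 it was 153 in the knockout (5 in edgeR), 38 in S205A (0), 34 in Y198F against S205A controls (0), 13 for S205A against Y308F effects (0), and 5 and 6 for the knockout against S205A and Y308F effects (1 and 2). With no filter it was 243 in the knockout, 7 in Y308F (0) and 9 in Y198F against S205A controls. In Y198F against labelled controls it fell from 2411 to 922 with all 8 groups in 1 fit, to 0 with the series as a term, and to 908 without control 3. The block gave 18 in the knockout and 1760 in Y198F.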
